A study of Mus musculus with 14 samples.

Results

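The comparison described here set vehicle-treated hepatic stellate cells without p62 (p62KO, 2 libraries) against vehicle-treated wild-type (WT) stellate cells (2 libraries), over every gene in the count table. These 4 libraries belong to a mouse series of 14, which also holds 4 stellate cell libraries treated with calcipotriol, a vitamin D receptor agonist, and 6 libraries of liver tissue from p62KO and WT mice given diethylnitrosamine and a high-fat diet. The cells came from p62KO or WT livers, had been made immortal with SV40 T antigen, and were grown in DMEM with 10% serum and 5 mM HEPES, so both groups carry T antigen and differ by genotype. Polyadenylated RNA was sequenced as single reads of 75 nucleotides from a library kit that keeps strand. The way the p62 allele was made, the strain and age of the mice, the make-up of the vehicle and any treatment of the cell donors are not given in the sources used here. Neither is the number of cell lines per genotype, so each difference below is a difference between the lines used. Nothing says that the 2 libraries of a group came from separate cultures, so p-values measure only the spread between libraries, which may be technical.

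Hepatic stellate cells lie between the hepatocytes and the sinusoids of the liver, where in the resting state they store vitamin A as retinyl esters in lipid droplets. After injury, or on plastic, they turn into myofibroblasts that contract, lay down collagen and signal to neighbouring cells, and they are the main source of scar matrix in liver fibrosis. The protein p62, encoded by Sqstm1, carries ubiquitylated cargo into autophagosomes, binds KEAP1 and so frees the antioxidant factor NRF2, and serves as a scaffold in NF-kB and mTORC1 signalling. In stellate cells it is also known as a partner of the vitamin D receptor and its heterodimer partner RXR.

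Total counts were 18179803 and 18938666 in the p62KO libraries, against 15207117 and 15362210 in the WT libraries. Of 23420 genes listed, 12681 had enough counts to be tested. Levels are given as CPM, counts scaled to 1000000 per library after TMM normalization (which evens out libraries by the bulk of their genes), in the order replicate 1, replicate 2, and differences as log2 fold change, p62KO over WT, with a standard error (SE). A gene is said to have risen or fallen where edgeR's quasi-likelihood test over the whole table gave a Benjamini-Hochberg adjusted p under 0.05. The p62KO vehicle libraries stood further apart than the WT vehicle libraries. Their chi-squared per degree of freedom over genes, which is near 1 for counting error alone, was 60.1 in p62KO and 1.66 in WT. For the calcipotriol libraries it was 199.5 in p62KO and 11.97 in WT. The SE and edgeR p-values of the vehicle comparison come from a fit of all 8 stellate libraries. They therefore also carry the spread of the calcipotriol libraries, not that of the vehicle libraries alone. Of 9984 genes with at least 5 CPM in the higher p62KO library, 543 were at least 2-fold higher in replicate 1 than in replicate 2 and 125 were at least 2-fold higher in replicate 2, while none of the genes with at least 5 CPM in the higher WT library differed by 2-fold between the WT libraries. The counts of a gene list are therefore also given without p62KO replicate 1 or 2 wherever that moved its total by more than 1.5 times.

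In all, 881 genes rose and 753 fell in p62KO cells, which is 12.9% of those tested (6.95% rose and 5.94% fell). A difference of at least 2-fold was reached by 680 of the genes that rose and 493 of those that fell, and one of at least 16-fold by 148 and 53. Every one of the 1634 genes had both p62KO libraries on the same side of both WT libraries, but so had many that did not pass. Among all tested genes, 34.6% had both p62KO libraries above and 34.2% had both below WT. When each of the 8 stellate libraries in the fit was left out in turn, 102 genes that rose and 111 that fell passed in all 8 fits. These are called stable below. The total was 243 or 238 without one or the other WT vehicle library and 872 or 873 without one or the other WT calcipotriol library. Without p62KO vehicle replicate 1, 414 rose and 427 fell, and without replicate 2 the total was 1706. Without one or the other p62KO calcipotriol library it was 3625 or 3635.

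Sqstm1 itself (GRCm38 chr11:50200152-50210820) had 0.835 and 0.211 CPM in p62KO libraries, against 318 and 316 CPM in WT libraries. Its log2 fold change was -9.22 ± 0.49 (SE), and the targeted gene was thus low in both libraries labelled p62KO and high in both labelled WT.

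The cells were checked against markers of the cell types a liver isolate can hold. Of 11 markers of activated stellate cells and myofibroblasts, all 11 were expressed at tested levels, 5 rose and 2 fell. Vim, the intermediate filament of mesenchymal cells, had 1750.3 and 2901 CPM in p62KO, against 2846 and 2894 CPM in WT, and did not pass. Several markers of the resting state were missing. Lrat, which makes the stored retinyl esters, Tcf21 and Bmp10 had no counts in any of the 4 libraries, and Des, Gfap, Ngfr and Rgs5 stayed under 1 CPM in all of them. Of the 13 markers of resting stellate cells that were tested, 4 rose, among them Hand2, Ecm1 and Angptl6, and 2 fell (Lhx2 and Vipr1). The defining markers of other cells were at or near 0: Ptprc and Emr1 of leukocytes and macrophages had no counts, Alb of hepatocytes had at most 0.0522 CPM, and Pecam1 and Cdh5 of endothelium had at most 0.272 CPM. Summed over each list, hepatocyte markers came to 1.46 and 0.158 CPM in p62KO and 1.902 and 1.87 CPM in WT, and the 10 lymphocyte markers to at most 0.104 CPM. Endothelial markers came to 8.82 and 5.75 CPM in p62KO and 9.71 and 7.90 CPM in WT, and mesothelial markers to 5.58 and 5.49 CPM in p62KO and 9.98 and 9.37 CPM in WT. The 10 cholangiocyte markers summed to 204 and 182 CPM in p62KO and 984 and 978 CPM in WT, nearly all of it Spp1, which stellate cells also make. In bulk RNA, fewer cells of a type and less RNA per cell cannot be told apart.

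Actin cytoskeleton and contraction genes, which mark the myofibroblast state, were higher in p62KO cells. Of 27 tested members of the contractile list, 11 rose, 1 fell and 15 did not pass, and the list's median log2 fold change was 0.53, beside 0.03 over all tested genes. Acta2, alpha smooth muscle actin, had 2631 and 2689.7 CPM in p62KO, against 739 and 712 CPM in WT (1.87 ± 0.26, SE). Its paralog Actg2, gamma smooth muscle actin, had 627 and 589 CPM in p62KO, against 111 and 107 CPM in WT (2.48 ± 0.22). In both genes the libraries of a genotype lay close together and the genotypes far apart, though near-identical coding sequences mean that some of their reads may be shared.

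Genes of proteins that work on these filaments rose with them. Cnn1, the actin-binding calponin, had 356 and 217 CPM in p62KO, against 16.6 and 14.3 CPM in WT (4.21 ± 0.39). Mylk, the kinase that phosphorylates myosin light chain, had 69.5 and 31.5 CPM in p62KO, against 1.63 and 2.14 CPM in WT (4.74 ± 0.43), the largest rise of the list. Its substrate chain Myl9 stood at 422 and 360.5 CPM in p62KO and 146 and 140.3 CPM in WT, and Tagln, the actin-bundling transgelin, at 1135 and 1565 CPM in p62KO and 444 and 438 CPM in WT. Tropomyosin Tpm1, leiomodin Lmod1, the LIM proteins Csrp1 and Csrp2 and the synaptopodin Synpo2 also rose, by 1.23 to 2.15 on the log2 scale. The member that fell was Mkl2, a coactivator of serum response factor, with 25.5 and 28.9 CPM in p62KO and 42.1 and 43.5 CPM in WT (-0.66 ± 0.18). Cnn1, Actg2 and Mylk were stable. Myh11, the heavy chain of mature smooth muscle, stayed low, at 2.35 and 0.844 CPM in p62KO and 0.407 and 0.201 CPM in WT, and did not pass. A CArG box, the element bound by serum response factor, searched on both strands from 250 bases before to 50 after the gene start, was in 5 of 23 members with a RefSeq promoter entry. Among the 9 of these that changed it was in 1, Myl9, beside 1.63% of 32851 promoters.

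Markers of pericytes and smooth muscle were also higher in p62KO cells. Of 10 markers 6 were tested, and 5 of these rose: Cnn1 and Actg2, which the contractile list also holds, and Cspg4, Mcam and Notch3. Cspg4, the NG2 proteoglycan, had 44.5 and 69.8 CPM in p62KO, against 0.0679 and 0.0669 CPM in WT, where it rested on 2 counts, and the ratio was 846 (95% counting interval 234 to 6993). Mcam, an adhesion molecule of vessel walls, had 60.7 and 123 CPM in p62KO, against 11.7 and 10.6 CPM in WT. The summed level of the list was 1107 and 1008 CPM in p62KO, against 142 and 135 CPM in WT, while Rgs5 and Kcnj8, defining pericyte genes, were under 1 CPM. Of the 7 tested markers of portal fibroblasts, Thy1, Cd34, Gas6 and Ly6a rose and Dpt fell. Gas6, a growth factor, was uneven, with 123 and 37.9 CPM in p62KO, against 10.5 and 10.1 CPM in WT.

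**Figure D1:**
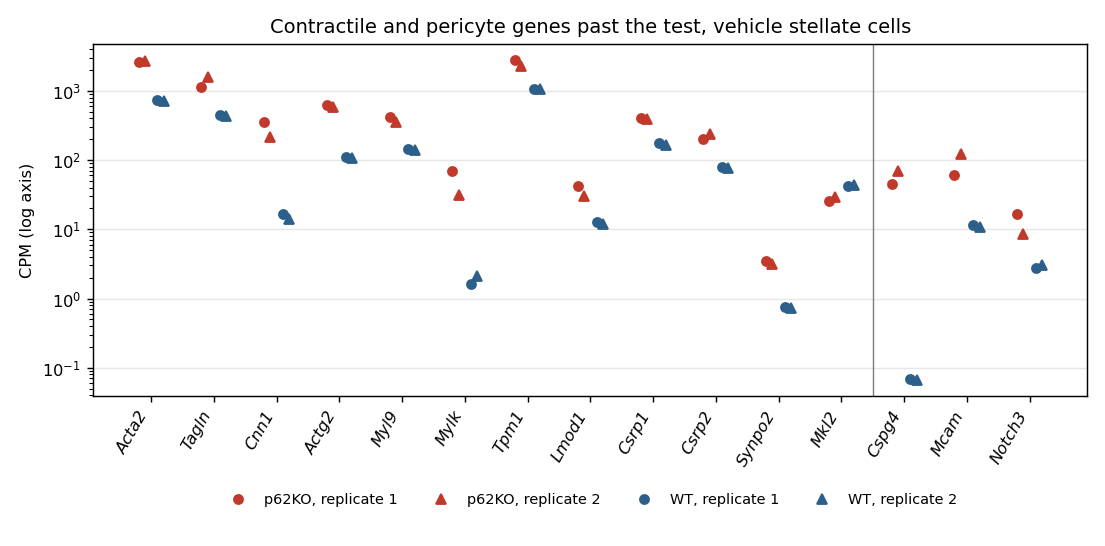
Levels in CPM (log axis) of the contractile genes that passed the test (left of the grey line) and of further pericyte markers that passed (right of it), with 1 point per library, p62KO in red and WT in blue. Every gene shown except Mkl2 has both p62KO libraries above both WT libraries.

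Collagen genes moved chain by chain. Of 10 tested fibrillar collagen genes, 3 rose and none fell, and all 3 were stable. Col1a2, one chain of type I collagen, had 2420.0 and 2051 CPM in p62KO, against 708 and 709 CPM in WT (1.66 ± 0.19). Its partner chain gene Col1a1 had 3059.9 and 3384 CPM in p62KO, against 2256 and 2325 CPM in WT, and did not pass (0.49 ± 0.27, adjusted p = 0.259). The minor chains Col5a3 and Col11a1, which nucleate thin fibrils, had the larger differences: Col11a1 stood at 59.1 and 220.4 CPM in p62KO and 2.78 and 2.28 CPM in WT (5.78 ± 0.67). Col3a1, a major chain of liver scars, did not pass (0.12 ± 0.20). Of 19 non-fibrillar collagen genes 5 rose and none fell: Col6a3, Col12a1, Col14a1, Col18a1 and Col4a6, of which the last 3 were stable. Col14a1, a fibril-associated chain, had 4.59 and 8.29 CPM in p62KO, against 0 and 0.0669 CPM in WT. The basement membrane chains Col4a1 and Col4a2 did not pass (-0.62 ± 0.23 and -0.50 ± 0.23).

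Matrix glycoproteins and proteoglycans split in both directions, with 14 that rose, 10 that fell and 32 that did not pass among 56. Those that fell included several matricellular proteins, which modulate cell adhesion. Spp1, osteopontin, had 191 and 171 CPM in p62KO, against 962 and 958 CPM in WT (-2.41 ± 0.26), and Tnc, tenascin C, had 158 and 125 CPM in p62KO, against 446 and 434 CPM in WT (-1.64 ± 0.22). Thbs2, thrombospondin 2, fell furthest, to 15.9 and 6.97 CPM in p62KO against 293 and 291 CPM in WT (-4.68 ± 0.37), and all 3 were stable. Sparc, Thbs1, Fbln5, Ltbp1, Lamb1, Lama5 and Nid2 also fell. Those that rose included small leucine-rich proteoglycans, which bind collagen fibrils. Decorin (Dcn) had 230.0 and 167 CPM in p62KO, against 48.1 and 44.9 CPM in WT, and Fmod and Prelp rose too, Prelp mostly in 1 library (348 and 40.4 CPM in p62KO, against 5.37 and 4.42 CPM in WT). Postn, periostin, had 276 and 418 CPM in p62KO, against 144 and 145 CPM in WT (1.26 ± 0.25). Fn1, fibronectin, did not pass and was uneven, with 1656 and 3462 CPM in p62KO, against 2245 and 2259.9 CPM in WT. Without p62KO replicate 1, 9 members of this list rose and 4 fell.

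Enzymes that cut or cross-link the matrix were as evenly split, with 7 that rose and 8 that fell of 47 tested. Of the secreted proteases with thrombospondin repeats, Adamts1, Adamts5 and Adamts14 fell. Adamts1 had 41.4 and 31.3 CPM in p62KO, against 121 and 119 CPM in WT, Adamts5 had 123 and 76.3 CPM in p62KO, against 334 and 330.0 CPM in WT, and Adamts14 had 0.835 and 2.27 CPM in p62KO, against 13.6 and 13.1 CPM in WT. The collagenase gene Mmp13 and the stromelysin gene Mmp10 fell as well, Mmp13 to 25.9 and 3.54 CPM in p62KO against 153 and 159 CPM in WT. Timp1, the main inhibitor of matrix metalloproteinases in fibrosis, had 537 and 436 CPM in p62KO, against 294 and 271 CPM in WT (0.78 ± 0.20). P4ha3 and Plod1, which hydroxylate collagen, and Loxl3, which cross-links it, rose, whereas the hydroxylase P4ha1 fell (-0.89 ± 0.20). P4ha3, Adamts1 and Adamts14 were stable. Lox, the founding lysyl oxidase, did not pass (0.43 ± 0.16, adjusted p = 0.121).

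The TGF-beta family is the best known driver of matrix production in stellate cells, and 11 of its 44 tested ligand, receptor and feedback genes rose while 4 fell. Among ligands, Tgfb2 had 28.1 and 30.7 CPM in p62KO, against 9.78 and 6.896 CPM in WT (1.82 ± 0.33), and Tgfb1 did not pass (0.72 ± 0.21, adjusted p = 0.0538). The activin chain Inhba rose (0.91 ± 0.20) and the chain Inhbb fell (-2.06 ± 0.24), as did Bmp4 (-1.21 ± 0.22). Among receptors, Eng, the co-receptor endoglin, was nearly off in WT, with 113 and 118 CPM in p62KO, against 0.883 and 0.669 CPM in WT (7.20 ± 0.41), and Acvrl1, the type I receptor that works with endoglin, had 24.1 and 10.3 CPM in p62KO, against 4.41 and 5.22 CPM in WT. Tgfbr2, the ligand-binding receptor, did not pass (-0.17 ± 0.16). Nog, a secreted antagonist of bone morphogenetic proteins, rose and had 3.601 and 3.69 CPM in p62KO, against 0.679 and 0.402 CPM in WT. Fstl3, which binds activin, and the induced genes Pmepa1 and Bhlhe40 rose too. Eng, Inhbb and Bhlhe40 were among 4 stable members. The list's median was 0.28, beside 0.03 over all tested genes. With chromosome medians removed it was 0.06, with 7 that rose and 3 that fell. Without p62KO replicate 1 the list's median was 0.08.

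Among growth factors and receptors of the tyrosine kinase class, 13 of 65 rose and 10 fell. The platelet-derived growth factor receptors, which define stellate cells, did not pass. Pdgfrb had 214 and 129 CPM in p62KO and 115 and 118 CPM in WT, and Pdgfra had 34.4 and 9.29 CPM in p62KO and 62.4 and 62.3 CPM in WT. Binding proteins of insulin-like growth factors were opposed. Igfbp7 had 736 and 422 CPM in p62KO, against 57.6 and 59.9 CPM in WT, and Igfbp2 had 24.2 and 48.9 CPM in p62KO, against 0.407 and 0.134 CPM in WT, while Igfbp6 had 2.14 and 1.003 CPM in p62KO, against 38.98 and 39.4 CPM in WT. Gdnf, a factor for neurons, rose (3.98 ± 0.39) and Ptn, pleiotrophin, fell (-2.80 ± 0.40). Met, the receptor of hepatocyte growth factor, fell (-1.21 ± 0.27), and its ligand Hgf, named after its values were seen, had 8.401 and 1.58 CPM in p62KO and 18.9 and 17.4 CPM in WT and did not pass (adjusted p = 0.111). The Eph receptor Ephb2 rose to 35.5 and 30.7 CPM in p62KO against 3.94 and 3.08 CPM in WT, and the ephrin Efnb2 fell (-1.04 ± 0.17). Igfbp2, Igfbp6, Igfbp7, Gdnf, Ptn and Ephb2 were stable.

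Developmental signalling genes were split as well. Of 40 tested Wnt genes 6 rose and 5 fell. The ligand gene Wnt5b rose to 6.58 and 3.11 CPM in p62KO against 0.475 and 0.335 CPM in WT, and the secreted modulators Dkk2 and Dkk3 rose, whereas Frzb, Sfrp1 and Rspo2, which are secreted too, fell. Frzb had 3.91 and 2.16 CPM in p62KO, against 22.1 and 20.6 CPM in WT, Sfrp1 had 3.81 and 0.739 CPM in p62KO, against 22.7 and 19.01 CPM in WT, and the amplifier Rspo2 had 0.313 and 1.58 CPM in p62KO, against 10.1 and 11.8 CPM in WT. Axin2, a general target of beta-catenin, stood at 1.62 and 0.9499 CPM in p62KO and 1.49 and 1.21 CPM in WT and did not pass. In the Notch and Hedgehog list 3 of 20 rose, the ligand gene Jag1, the receptor gene Notch3 and the target gene Hey1 (6.73 and 5.44 CPM in p62KO, against 0.475 and 0.469 CPM in WT). Gli2, a transcription factor of the Hedgehog pathway, fell to 0.574 and 0.528 CPM in p62KO against 7.54 and 7.97 CPM in WT, as did the pathway inhibitor Hhip.

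Genes of the integrated stress response rose in p62KO cells, while no chaperone gene of the endoplasmic reticulum with the element described here passed. In this response, kinases that sense amino acid shortage, misfolded protein or other stress slow translation and raise the factor ATF4, which turns on amino acid transport and synthesis. The unfolded protein response proper works through ATF6 and XBP1, which turn on chaperones through an element called ERSE. Of 46 tested members of the combined list, 14 rose and none fell. Every one of the 14 belongs to the amino acid and ATF4 side or is known to be induced by ATF4, with the ubiquitin-pathway gene Herpud1 shared by both branches. None of the 7 tested members with the form of the ERSE searched below passed.

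Promoter sequence from RefSeq (GRCm38.p6) was at hand for 41 of the 47 members, as 250 bases before and 50 after the start of the gene. The first element searched was TGATGNAA on either strand, the shape bound by ATF4 with a C/EBP partner, and the second was the ERSE on either strand, CCAAT and CCACG with 9 bases of any kind between them. Neither holds the other. TGATGNAA was found in 9 of 41 members, 8 of them among the 12 that rose and had a promoter entry, and in 3.97% of 32851 promoters of the table. This form of the ERSE was found in 8 of 41 members, in none of the 12 that rose, and in 0.119% of all promoters. Only this spacing was searched. The Herpud1 stretch printed below also holds attgggccacg, which is left unmarked. There ATTGG, which is CCAAT on the other strand, lies closer to CCACG. A match is a run of letters, not a shown site of binding. The 250 bases before the start are printed here for the 4 members with TGATGNAA and the smallest p, and, chosen after their values were seen, for 2 chaperone genes with the ERSE that did not pass. Capitals mark the element.
Nupr1 (chr7:126625471-126625720, minus strand): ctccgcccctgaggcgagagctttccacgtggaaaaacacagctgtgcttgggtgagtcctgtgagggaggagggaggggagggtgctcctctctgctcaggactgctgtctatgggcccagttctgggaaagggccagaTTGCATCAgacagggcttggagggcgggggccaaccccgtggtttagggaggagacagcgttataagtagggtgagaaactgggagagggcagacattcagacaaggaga
Vldlr (chr19:27216770-27217019, plus strand): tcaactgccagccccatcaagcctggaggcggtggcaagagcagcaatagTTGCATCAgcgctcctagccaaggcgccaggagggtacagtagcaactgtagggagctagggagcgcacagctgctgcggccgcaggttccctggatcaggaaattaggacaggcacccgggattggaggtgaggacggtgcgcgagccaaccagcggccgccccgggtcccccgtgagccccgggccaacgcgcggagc
Herpud1 (chr8:94386179-94386428, plus strand): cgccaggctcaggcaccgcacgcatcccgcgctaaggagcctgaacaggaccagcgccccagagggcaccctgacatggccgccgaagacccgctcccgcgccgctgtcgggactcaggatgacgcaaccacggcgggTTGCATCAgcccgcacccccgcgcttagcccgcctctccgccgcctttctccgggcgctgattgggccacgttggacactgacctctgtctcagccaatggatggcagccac
Slc7a11 (chr3:50443614-50443863, minus strand): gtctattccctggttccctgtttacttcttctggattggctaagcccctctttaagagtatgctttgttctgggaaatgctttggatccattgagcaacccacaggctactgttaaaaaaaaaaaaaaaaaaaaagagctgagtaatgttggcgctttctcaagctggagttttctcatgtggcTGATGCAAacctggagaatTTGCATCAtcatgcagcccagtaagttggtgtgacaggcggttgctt
Hspa5 (chr2:34771840-34772089, plus strand): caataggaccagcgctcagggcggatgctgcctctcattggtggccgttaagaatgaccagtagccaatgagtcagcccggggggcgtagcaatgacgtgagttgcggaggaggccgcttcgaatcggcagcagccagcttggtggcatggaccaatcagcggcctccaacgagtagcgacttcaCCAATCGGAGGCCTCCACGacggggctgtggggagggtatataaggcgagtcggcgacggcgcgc
Pdia6 (chr12:17266339-17266588, plus strand): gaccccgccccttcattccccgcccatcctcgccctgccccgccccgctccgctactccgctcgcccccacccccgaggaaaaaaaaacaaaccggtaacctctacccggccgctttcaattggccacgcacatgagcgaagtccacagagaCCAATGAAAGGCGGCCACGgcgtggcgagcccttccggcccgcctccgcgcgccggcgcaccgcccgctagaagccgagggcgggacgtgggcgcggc
The element lay 110 bases before the start in Nupr1, 200 in Vldlr, 112 in Herpud1, and 66 and 47 in Slc7a11, which has a pair of copies. The ERSE lay 65 bases before the start in Hspa5 and 98 in Pdia6.

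The 4 genes printed with TGATGNAA had the genotypes well apart. Nupr1, a stress-induced chromatin protein, had 73.1 and 76.9 CPM in p62KO, against 20.8 and 20.2 CPM in WT (1.87 ± 0.19). Vldlr, a lipoprotein receptor, had 60.2 and 94.6 CPM in p62KO, against 18.3 and 17.3 CPM in WT (2.12 ± 0.24), and Herpud1, which helps clear misfolded proteins, had 122 and 110.0 CPM in p62KO, against 47.5 and 46.5 CPM in WT (1.30 ± 0.17). Slc7a11, the cystine transporter, had 31.5 and 54.4 CPM in p62KO, against 10.2 and 9.57 CPM in WT (2.12 ± 0.38). The other members with the element that rose were Chac1, Trib3, Asns and Slc1a4. Both p62KO libraries lay above both WT libraries in each of these 8 genes.

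Atf4 itself rose, with 528 and 579.6 CPM in p62KO, against 308 and 305 CPM in WT (0.85 ± 0.17). Cth, which makes cysteine from cystathionine, had 68.5 and 129 CPM in p62KO, against 13.3 and 14.7 CPM in WT (2.82 ± 0.33), the largest change of the list. Enzymes of serine, folate and asparagine metabolism followed: Phgdh had 236 and 323 CPM in p62KO, against 126 and 132 CPM in WT, Mthfd2 had 178 and 215 CPM in p62KO, against 96.6 and 91.6 CPM in WT, and Asns had 215 and 365 CPM in p62KO, against 128 and 118 CPM in WT. Sesn2, which reports amino acids to mTORC1, and the mitochondrial folate enzyme Aldh1l2 rose too. In 13 of the 14 genes replicate 2 had the higher level of the p62KO libraries, and the count without replicate 1 was also 14. Cth, Nupr1 and Vldlr were stable. Without replicate 2 the count was 8 that rose and 1 that fell.

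The chaperones gave small values. Hspa5, the main chaperone of the endoplasmic reticulum, had 1317 and 1398 CPM in p62KO, against 1215 and 1217 CPM in WT (0.16 ± 0.17, adjusted p = 0.587). Pdia6 had 573 and 399 CPM in p62KO and 433 and 427 CPM in WT (0.18 ± 0.21), and Calr, calreticulin, 1776 and 1061 CPM in p62KO and 1106 and 1095 CPM in WT. The 7 tested members with the ERSE had log2 fold changes from -0.77 to 0.48, and the lowest of them, Hsp90b1, lies on chromosome 10, whose median was also negative, at -0.64. The 14 that rose had log2 fold changes from 0.85 to 2.82. Ddit3, which encodes CHOP, had 60.6 and 41.3 CPM in p62KO and 45.8 and 43.98 CPM in WT, and did not pass.

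**Figure D2:**
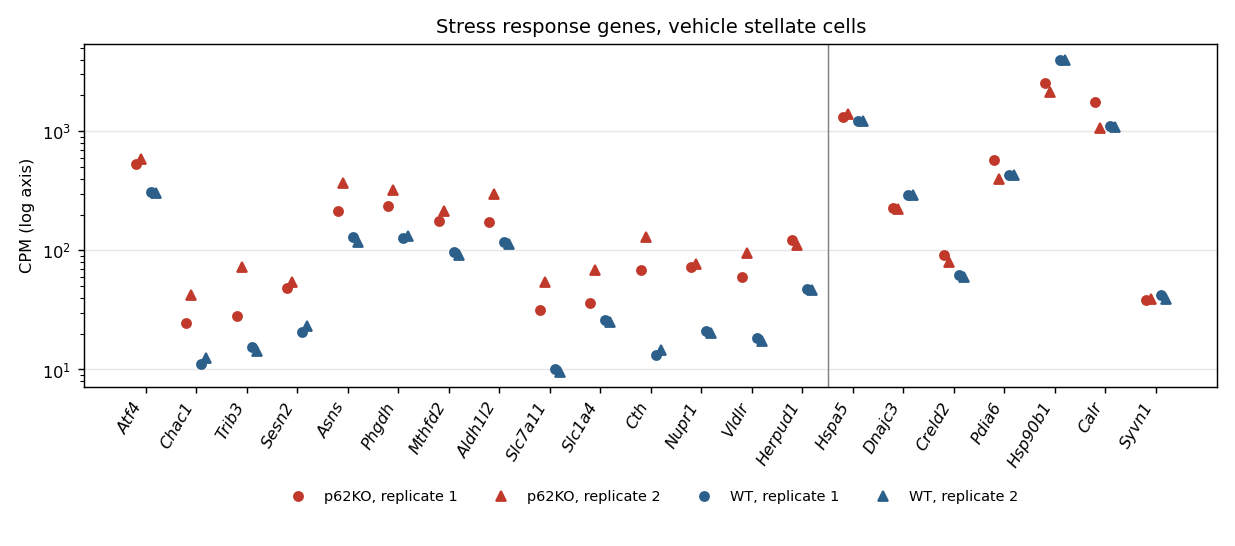
Levels in CPM (log axis) of stress response genes that rose (left of the grey line) and tested members with the ERSE searched here (right). Each library has 1 point, p62KO in red and WT in blue. The 14 genes on the left have both p62KO libraries above WT, whereas the 7 on the right did not pass.

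Targets of p53 rose in 10 of 33 cases and fell in 2. T antigen binds and blocks p53, and both lines carry it. Cdkn1a, the cell cycle inhibitor p21, had 365 and 249.9 CPM in p62KO, against 99.7 and 99.3 CPM in WT (1.63 ± 0.29). Gadd45a, induced by DNA damage and by stress, had 39.8 and 36.6 CPM in p62KO, against 7.199 and 7.699 CPM in WT (2.36 ± 0.26), and Perp, a membrane protein of cell death, had 49.7 and 14.6 CPM in p62KO, against 0.136 and 0.335 CPM in WT (7.05 ± 0.75). Sesn2 and Gdf15 are shared with other lists given above. Mdm2, the feedback inhibitor of p53, had 248 and 175 CPM in p62KO and 257 and 274 CPM in WT and did not pass. Replicate 1 was above replicate 2 in 27 of the 33 members, and without it 3 members rose and 2 fell. Of 53 cell cycle genes 2 rose, Pttg1 and Ccnb1, and none fell, and the count without replicate 1 was 1. Pttg1, which encodes securin, had 66.8 and 73.5 CPM in p62KO, against 13.2 and 15.5 CPM in WT (2.29 ± 0.24), and Mki67 had 295 and 456 CPM in p62KO and 623 and 639.8 CPM in WT (adjusted p = 0.0904).

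Of 27 members of the list of selective autophagy receptors and p62 partners, 2 passed, beside 12.9% over all tested genes. None rose, and the 2 that fell were Sqstm1 and Wdfy3, which brings p62 bodies to autophagosomes (67.8 and 92.8 CPM in p62KO, against 183 and 185 CPM in WT, -1.20 ± 0.21). Nbr1, the receptor most like p62, had 107 and 90.3 CPM in p62KO and 99.5 and 102 CPM in WT, with a log2 fold change of -0.03 ± 0.18. Of 54 autophagy and lysosome genes 1 rose and 4 fell, beside 6.95% that rose and 5.94% that fell over all tested genes. Among those that passed were the autophagy genes Atg2b and Wipi2 and the lysosomal enzyme gene Gusb. In 44 of these 54 replicate 1 was above replicate 2. None of the 5 was stable, and without p62KO replicate 1 none rose and 2 fell. Without replicate 2 the total was again 5, but all 5 rose and none fell. Of the p62 partners, 1 fell without replicate 1.

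Of 34 antioxidant genes driven by NRF2, 3 rose and 2 fell, beside 6.95% that rose and 5.94% that fell over all tested genes. Nqo1, the quinone reductase often used to read NRF2, had 90.1 and 47.1 CPM in p62KO, against 16.8 and 16 CPM in WT (2.06 ± 0.33), and the epoxide hydrolase Ephx1 rose (1.14 ± 0.27), as did Slc7a11. Txnrd1, thioredoxin reductase, had 351 and 474 CPM in p62KO, against 1069 and 1068 CPM in WT (-1.37 ± 0.20), and lies on chromosome 10. Prdx6, a peroxiredoxin, fell (-1.01 ± 0.20). Hmox1, heme oxygenase, Gclm and Gclc did not pass, with log2 fold changes of 0.15, 0.06 and 0.11. Without p62KO replicate 1, 2 rose and 1 fell, and without replicate 2, 7 rose and 3 fell. The antioxidant response element TGACNNNGC, searched on both strands, was in 12 of 34 promoters of the list that had an entry, in 1 of the 4 among them that changed, and in 12.4% of all promoters.

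In the list of the vitamin D receptor, other nuclear receptors and targets, none of 32 tested members rose and 3 fell. Over all tested genes, 6.95% rose and 5.94% fell. The list members that fell included Nr2f2, also called COUP-TFII, and the thyroid hormone receptor Thrb. Without p62KO replicate 2, 1 rose and 4 fell. Nr2f2 had 68.3 and 85.4 CPM in p62KO, against 213 and 207 CPM in WT (-1.45 ± 0.18). Vdr had 10.2 and 15.5 CPM in p62KO and 15.3 and 15.6 CPM in WT and did not pass (-0.27 ± 0.25). Its target Cyp24a1, which degrades vitamin D, had 1.83 and 5.12 CPM in p62KO and 9.85 and 8.502 CPM in WT without added ligand (-1.40 ± 0.42, adjusted p = 0.0633).

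Retinoid and lipid droplet genes, the programme of the resting cell, had 5 that rose and 2 that fell of 26 tested. Mgll, the lipase that splits monoacylglycerols, was on in one genotype, with 33.8 and 52.2 CPM in p62KO and no counts in WT, which is at least 425-fold higher against a limit of 3 counts over the WT group. Lpl, lipoprotein lipase, was lower, with 29.2 and 26.4 CPM in p62KO, against 159 and 165 CPM in WT (-2.54 ± 0.26). Adh7 and Dhrs3, which interconvert retinol and retinal, also rose: Adh7 had 6.31 and 7.23 CPM in p62KO, against 0.543 and 0.469 CPM in WT, and Dhrs3 had 5.69 and 4.59 CPM in p62KO, against 1.09 and 0.469 CPM in WT.

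Transcription factors that set the regional identity of mesenchyme fell more often than they rose, with 18 that fell and 9 that rose of 73 tested. The list's median was -0.26, beside 0.03 over all tested genes. Barx1, a homeobox gene of the embryonic foregut, had no counts in p62KO and 13.1 and 15.4 CPM in WT, and was at least 181-fold lower. Ebf3 had 0.313 and 0 CPM in p62KO, against 41.8 and 40.4 CPM in WT (-7.97 ± 0.59), and Irx2 had 0.261 and 0.106 CPM in p62KO, against 5.84 and 4.35 CPM in WT. Factors of the stellate lineage were split. Gata4, which in mice holds stellate cells back from fibrosis, had 6.26 and 4.85 CPM in p62KO, against 22.8 and 24.97 CPM in WT (-2.10 ± 0.23), and Lhx2, another brake on activation, had 2.296 and 2.22 CPM in p62KO, against 9.304 and 8.904 CPM in WT. Hand2, in contrast, had 152 and 50.1 CPM in p62KO, against 11.7 and 10.4 CPM in WT (3.19 ± 0.49). Tbx20 and Foxp2 rose and were stable: Tbx20 had 6.42 and 13.5 CPM in p62KO, against 0.272 and 0.335 CPM in WT.

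Hox genes record position along the body axis. Of 23 tested, Hoxb8 and Hoxc6 rose and Hoxa6, Hoxa7, Hoxb4 and Hoxb13 fell, and none was stable. Hoxa7 had 1.305 and 0.739 CPM in p62KO, against 6.79 and 6.56 CPM in WT (-2.70 ± 0.49). Hoxa2 did not pass, with a log2 fold change of -0.14.

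Cell adhesion genes are given by family. In the list of integrins and classical cadherins, which also holds Thy1, 10 of 32 rose and 3 fell, with a list median of 0.57. Thy1, a surface protein of fibroblasts, had 173 and 278 CPM in p62KO, against 0.0679 and 0 CPM in WT, where 1 count was seen, and the ratio was 6674 (95% counting interval 1197 to 263624). The cadherin gene Cdh3 had 33.1 and 53.1 CPM in p62KO, against 0.611 and 0.669 CPM in WT (6.06 ± 0.41), Cdh11, the cadherin of myofibroblasts, 86.99 and 105 CPM in p62KO, against 43.2 and 40.97 CPM in WT (1.19 ± 0.19), and Itga1, a collagen receptor chain, 52.4 and 33.8 CPM in p62KO, against 15.1 and 15.5 CPM in WT. Itgb1, the common beta chain, and Cdh2, N-cadherin, did not pass (0.37 ± 0.31 and -0.26 ± 0.16).

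Protocadherins, which sort neighbouring cells, were split, with 8 that fell and 3 that rose of 30 tested and a list median of -0.68. The p62KO libraries were uneven here, with medians over WT of -0.38 in replicate 1 and -1.51 in replicate 2. Replicate 1 was above replicate 2 in 27 of the 30. Pcdh7 had 232 and 150.4 CPM in p62KO, against 474 and 474 CPM in WT, and Pcdh1 had 0.522 and 0.317 CPM in p62KO, against 22.1 and 17.6 CPM in WT (-5.54 ± 0.46). Within the gamma cluster, whose members share their constant exons so that reads can be split among them, Pcdhga11, Pcdhga6 and Pcdhga7 rose and Pcdhgb6, Pcdhgb4 and Pcdhgc3 fell. Pcdhgb6 had 0.104 and 0.0528 CPM in p62KO, against 8.49 and 6.03 CPM in WT. These 6 values are uncertain for that reason. Axon guidance genes also fell more than they rose, 11 against 5 of 43. The class 3 semaphorins Sema3e (11.4 and 29.97 CPM in p62KO, against 171 and 164 CPM in WT) and Sema3d, the receptor Plxna2 and the co-receptor Nrp1 fell, and Robo1 rose. Without p62KO replicate 1, 3 guidance genes rose and 6 fell. Pcdh1, Pcdhgb6 and Pcdhga11 were among 6 stable protocadherins, and Sema3e, Sema3d and Plxna2 among 6 stable guidance genes.

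**Figure D3:**
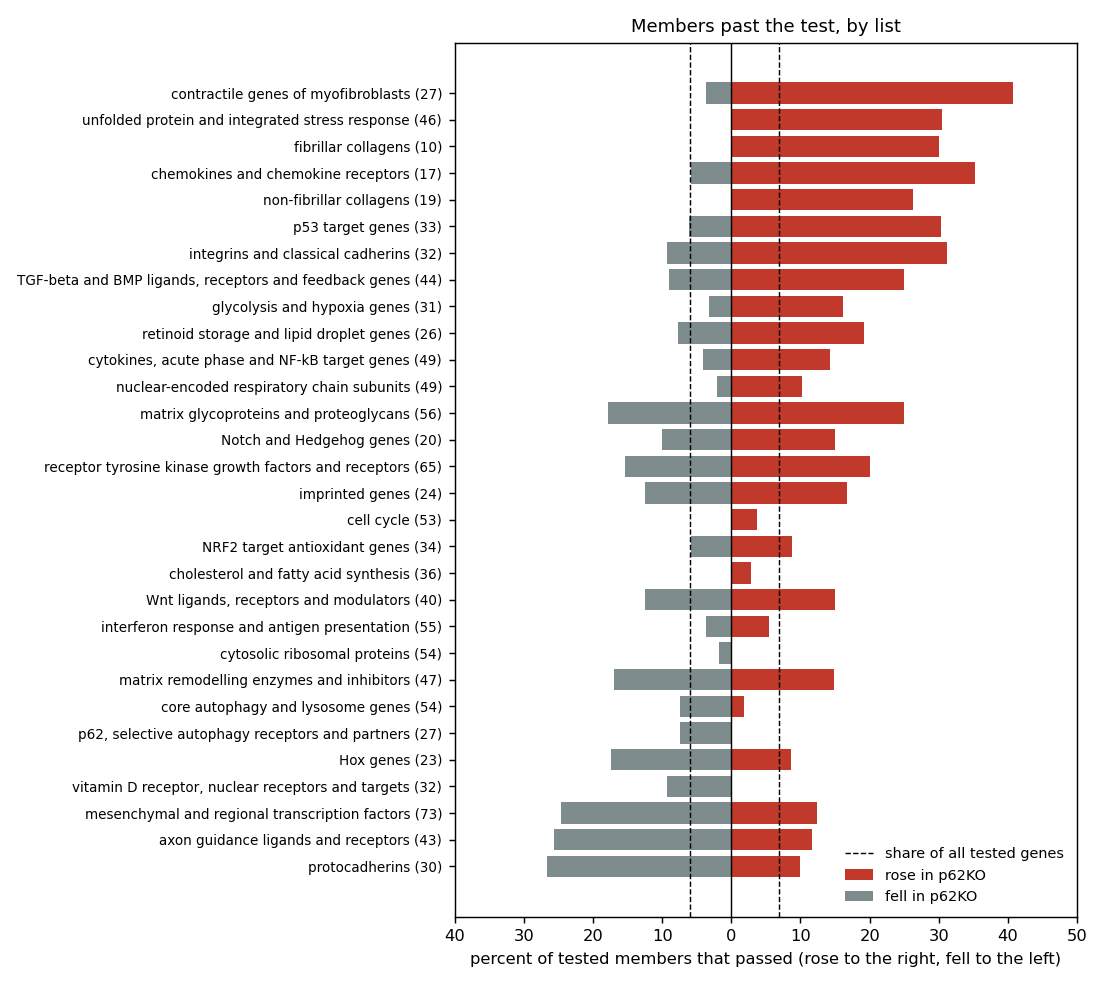
Share of the tested members of each list that rose (red, right) or fell (grey, left) in p62KO cells, for 30 lists of 10 or more tested members, without the cell type marker lists; numbers in brackets are tested members. Dashed lines mark the shares over all tested genes, 6.95% that rose and 5.94% that fell; contractile, chemokine and integrin lists reach furthest to the right, and protocadherins, guidance genes and transcription factors furthest to the left.

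Many inflammatory genes were high in 1 of the 2 p62KO libraries. Of 17 tested chemokines and receptors 6 rose and 1 fell. Among the attractants of monocytes, Ccl7 had 196 and 13.4 CPM in p62KO, against 3.12 and 2.95 CPM in WT (5.10 ± 1.16). Of the attractants of neutrophils, Cxcl3, Cxcl5 and Cxcl1 had nearly all their p62KO level in replicate 1. Cxcl3 rose, with 195 and 0.58 CPM in p62KO, against 0.0679 and 0.0669 CPM in WT, where it rested on 2 counts, and the ratio was 1461 (95% counting interval 404 to 12070.0; edgeR adjusted p = 0.037). Cxcl5 had 247 and 0.317 CPM in p62KO and no counts in WT, Cxcl1 had 148 and 0.792 CPM in p62KO and 1.02 and 0.669 CPM in WT, and neither passed. In replicate 2, Cxcl1 thus lay between the WT libraries. Cx3cl1, fractalkine, was higher in replicate 2, with 5.69 and 12.7 CPM in p62KO, against 1.36 and 1.81 CPM in WT (2.53 ± 0.43). Cxcl14 fell, with no counts in p62KO and 1.77 and 2.01 CPM in WT. Cxcl12, the ligand of CXCR4, had 1605 and 1664 CPM in p62KO and 2569.8 and 2498 CPM in WT and did not pass (-0.63 ± 0.18, adjusted p = 0.0567). The list's median over WT was 2.72 in replicate 1 and 0.33 in replicate 2, and without replicate 1, 2 members rose and 1 fell. Without replicate 2, 13 rose and 1 fell. Macrophage markers summed to 53.1 and 14.7 CPM in p62KO and 26.4 and 23.9 CPM in WT, with Ptprc and Emr1 at 0, and their part in these levels was not tested.

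The cytokine and NF-kB list was uneven in the same direction, with 7 of 49 that rose and 2 that fell, medians over WT of 0.72 in replicate 1 and -0.05 in replicate 2, and 2 that rose and 2 that fell without replicate 1. Without replicate 2, 18 rose and 2 fell. Members that were uneven included Lcn2 (24.1 and 0.0528 CPM in p62KO, none in WT, too low for the test) and Nfkbia, the feedback inhibitor of NF-kB (142 and 51.03 CPM in p62KO, against 31.9 and 28.2 CPM in WT, 1.69 ± 0.45). Members that moved alike in both p62KO libraries were Il1rl1 and Tnfrsf11b, and these were the stable ones. Il1rl1, the receptor of interleukin 33, had 1.62 and 1.16 CPM in p62KO, against 61.4 and 60.9 CPM in WT (-5.45 ± 0.28). Tnfrsf11b, osteoprotegerin, had 66.8 and 103 CPM in p62KO, against 13.8 and 14.9 CPM in WT (2.57 ± 0.27). An NF-kB site, GGG followed by A or G, any pair of bases, a pair of pyrimidines and CC, on either strand, was in 13 of 44 promoters of the list, in 4 of the 6 among them that changed and in 8.46% of all promoters.

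Interferon and antigen presentation genes straddled WT. In all 55 tested members replicate 1 of p62KO was above replicate 2, and in 31 of them replicate 1 was above and replicate 2 below both WT libraries. Isg15, a ubiquitin-like protein induced by interferon, had 72.8 and 12.7 CPM in p62KO and 36.2 and 36.6 CPM in WT. In all, 3 rose and 2 fell. The 3 were the class I genes H2-K1 and H2-D1 and the chemokine gene Cxcl10. H2-K1 had 149.9 and 64.9 CPM in p62KO, against 28.3 and 29.5 CPM in WT (1.89 ± 0.43), above WT in both libraries, though H2-K1 and H2-D1 are near-identical genes whose reads may be shared. The 2 that fell were Ifih1, a sensor of viral RNA, and Irgm1. Without replicate 1, 1 rose and 16 fell, and without replicate 2, 13 rose and 1 fell.

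**Figure D4:**
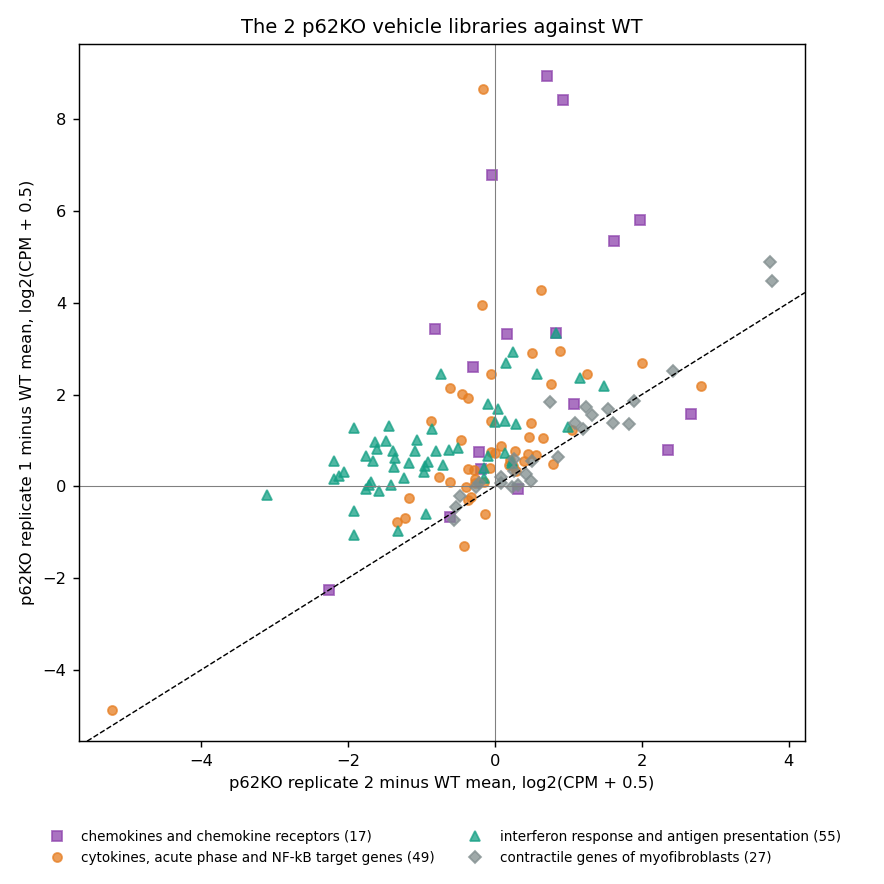
Difference from the WT mean on the log2(CPM + 0.5) scale of p62KO replicate 2 (x axis) and p62KO replicate 1 (y axis), with 1 point per tested gene of 4 lists and the dashed line at equal values. Interferon genes (triangles) all lie above the line, and most chemokine points do, whereas contractile genes (diamonds) lie close to it.

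As over all tested genes, of which 12.9% passed, most genes of the metabolic and housekeeping lists did not pass. Of 36 cholesterol and fatty acid genes 1 rose, Fdps, at 124 and 48.8 CPM in p62KO and 31.1 and 29.5 CPM in WT, and the list's median over WT was 0.72 in replicate 1 and 0.07 in replicate 2. Without p62KO replicate 2, 7 members rose, and with DESeq2 in place of edgeR 6 did. Glycolysis and hypoxia genes had 5 that rose and 1 that fell of 31, led by the lactate exporter Slc16a3 (22.8 and 16.04 CPM in p62KO, against 2.04 and 1.67 CPM in WT, 3.38 ± 0.33). Of the 49 respiratory chain subunits on the list 5 rose, Ndufa4, Ndufa5, Ndufa9, Sdha and Sdhb, and Atp5b fell. Subunit genes outside the list, of which Ndufa6, Ndufs6 and Ndufc1 also rose (1.07, 1.02 and 0.98), were not counted. The 6 members that passed lie on chromosomes 4, 6 and 13, with positive medians, and on chromosome 10. None of them passed with chromosome medians removed. The list's median was 0.33, beside 0.03 over all tested genes, and 0.31 with chromosome medians removed. Both p62KO libraries lay above both WT libraries in 37 members and below in 5, beside 34.6% and 34.2% over all tested genes. Without p62KO replicate 1, 1 member of the list rose and none fell, and the same counts were found without replicate 2. Of 54 ribosomal protein genes 1 fell, Rpl6. Neither Fdps nor Rpl6 passed without p62KO replicate 1, and Rpl6 did not pass without replicate 2. Among imprinted genes, expressed from 1 parental copy, 4 rose and 3 fell of 24: Peg3 had 3.34 and 0.792 CPM in p62KO, against 28.7 and 28.1 CPM in WT, Dlk1 had 8.77 and 3.75 CPM in p62KO, against 33.8 and 31.6 CPM in WT, and Rian, a noncoding RNA of the same locus as Dlk1, rose to 9.91 and 2.11 CPM in p62KO against 0.475 and 0.402 CPM in WT.

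Some genes were close to absent from 1 genotype, with at most 3 counts over its libraries, while averaging at least 5 CPM in the other. Of those that passed, 22 were higher in p62KO, 5 of them with no counts in WT, and 2 were lower. Jph2, a junction protein of muscle membranes, had 100.03 and 70.03 CPM in p62KO, against 0 and 0.134 CPM in WT, and the ratio was 1262 with a 95% interval from 349 to 10428. Ctsc, a lysosomal protease, had 34.8 and 28.5 CPM in p62KO, against 0.136 and 0 CPM in WT, and the ratio was 469 with an interval from 130 to 3879.5. Cthrc1, a secreted protein of activated fibroblasts, was at least 151-fold and the glycosyltransferase B3gnt5 at least 76.3-fold higher, with no counts in WT. Gpr141, an orphan receptor, was at least 257-fold higher but uneven, at 2.66 and 49.6 CPM in p62KO. On the other side, besides Barx1, the falls of largest fold included Bnc1 (0.313 and 0.369 CPM in p62KO, against 21.6 and 22.6 CPM in WT), Amigo2, an adhesion molecule (1.36 and 1.48 CPM in p62KO, against 59.4 and 59.4 CPM in WT), and Cck, the hormone cholecystokinin (1.62 and 0.106 CPM in p62KO, against 28.7 and 34.7 CPM in WT). These intervals and limits hold for counting error alone, since no molecular identifiers are described.

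By the difference in level, the rises of most CPM beyond those above were S100a4, S100a10, Cyr61 and Ptx3. S100a4, a calcium-binding protein of fibroblasts, had 867 and 581 CPM in p62KO, against 224 and 219.5 CPM in WT (1.71 ± 0.23). Cyr61, a target of the coactivator YAP, had 2128 and 1634 CPM in p62KO, against 899 and 896 CPM in WT, and the pentraxin Ptx3 had 794 and 140.1 CPM in p62KO, against 79.3 and 75.5 CPM in WT. Among falls, Hmga2, a chromatin protein of growing mesenchyme, had 108 and 158 CPM in p62KO, against 767 and 764 CPM in WT (-2.52 ± 0.26), and Man2a1, which trims glycans, had 259 and 326 CPM in p62KO, against 924 and 933 CPM in WT. Hmga2, Nap1l1, Tmpo, Ddx21 and Txnrd1, 5 of the 10 falls of most CPM, lie on chromosome 10.

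Whole chromosomes differed in their medians. On chromosome 10, 176 of 631 tested genes fell and 21 rose, which is 31.2%, beside 12.9% over all chromosomes, and the median log2 fold change was -0.64. The shift ran along its length, since the medians of its 7 bins of 20 Mb lay between -0.81 and -0.55. It was -0.59 in p62KO replicate 1 and -0.67 in replicate 2, and over the autosomes and X the calcipotriol-treated WT libraries lay between -0.08 and 0.04. Chromosomes 3, 13, 6 and 4 had medians of 0.43, 0.43, 0.37 and 0.34 and chromosome 5 had -0.36. The 4 tested genes of the Y chromosome had a median log2 fold change of -0.98, with -0.83 in p62KO replicate 1 and -1.26 in replicate 2, and none passed. Of 8 tested sex-linked genes, 7 had both p62KO libraries below both WT libraries. In livers, the p62KO medians of the autosomes and X lay between -0.03 and 0.08. Csrp2, Dcn and Perp, which rose, lie on chromosome 10 and went against its median. With chromosome medians removed 561 genes rose and 414 fell. What these medians reflect was not tested.

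**Figure D5:**
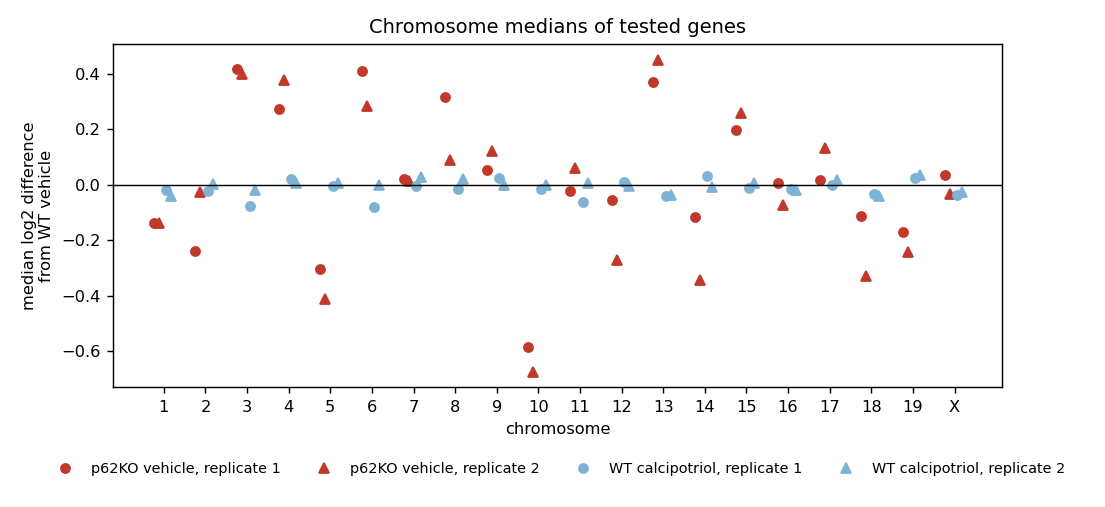
Median log2 difference from the vehicle-treated WT libraries over the tested genes of each chromosome, for both p62KO vehicle libraries (red) and, as a comparison within a genotype, both WT calcipotriol libraries (light blue). Chromosome 10 lies at -0.59 and -0.67 in p62KO, while the WT points stay near 0.

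The difference between genotypes was then set beside that under calcipotriol, measured in 2 libraries of each genotype, to see where the vehicle comparison stood apart. Of the 1634 genes that passed with vehicle, 1615 had the same sign and 1120 passed in the same direction with calcipotriol, and none passed in the opposite one. Both comparisons use the same lines and 1 shared estimate of spread, and 19.8% of tested genes passed with calcipotriol. No gene passed the test of the dependence of the genotype difference on calcipotriol in edgeR (677 had an unadjusted p under 0.05, and the smallest adjusted p was 0.708), and DESeq2 gave none either (823 unadjusted). The edgeR count was 2514 without p62KO calcipotriol replicate 1 and 7 without p62KO vehicle replicate 2. The 3 genes of smallest p were Cyp1a1, Map3k5 and Cdo1. Cyp1a1, an enzyme induced through the aryl hydrocarbon receptor, had 7.25 and 7.92 CPM in p62KO, against 0.272 and 0.268 CPM in WT with vehicle, and its genotype difference was 4.78 with vehicle and 1.63 with calcipotriol (log2), not a passing difference.

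The vehicle comparison was also set beside that of p62KO and WT livers. Of 11218 genes tested in both, 1329 (11.8%) passed in vehicle-treated stellate cells and 831 (7.41%) in liver, where 7.94% of all genes tested in liver passed. In both, 61 rose and 7 fell, and 72 passed in opposite directions, so 10.5% of the stellate genes passed in liver too and 16.8% of the liver genes passed in stellate cells too. The liver count rested on few animals, since it ranged from 3 to 3669 over all genes tested there when 1 liver was left out. Of the collagen and matrix glycoprotein lists, 6 genes rose in both, none fell in both and 4 passed in opposite directions. Those that rose in both, with log2 fold changes in stellate cells and then in liver, were Col1a2 (1.66 and 2.05), Col6a3 (2.01 and 1.56), Col12a1 (1.46 and 1.14), Col14a1 (7.33 and 0.78), Lama2 (3.96 and 1.74) and Postn (1.26 and 1.32). Those lower in p62KO stellate cells and higher in p62KO livers were Sparc (-1.04 and 2.07), Spp1 (-2.41 and 2.24), Tnc (-1.64 and 1.93) and Lama5 (-1.86 and 2.19). Outside these lists, Timp1 (0.78 and 1.83) and Tgfb2 (1.82 and 1.22) rose in both. Sqstm1 fell in both. Liver holds many cell types, and which of them carries these genes was not tested.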

How the data were processed

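Raw read counts per gene were used as the authors deposited them, in 1 table for the stellate cells and 1 for the livers, each with 23420 genes. Reads were placed on mm10, per the submitters' processing notes. The aligner, the counter, its use of strand and the gene models are not given in the sources used here, so overlapping genes, antisense genes and near-identical copies can share reads. No column was without a sample, no mitochondrially encoded gene was listed, and 27 gene names in each table had turned into dates.

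All 8 stellate libraries entered 1 fit with a mean for each of 4 groups (edgeR 4.0.16 with limma 3.58.1 in R 4.3.3, TMM, filterByExpr, quasi-likelihood test, Benjamini-Hochberg adjustment over all genes tested). The contrast was p62KO minus WT with vehicle. The 6 livers had a fit of their own. SE is the log2 fold change divided by the root of F. The other settings were DESeq2 1.42.0, limma voom, other scalings and filters, a replicate block, the 4 vehicle libraries alone, removal of chromosome medians, and leaving out libraries. Tables were handled in Python 3.11.15 (numpy 2.4.6, pandas 2.3.3, scipy 1.17.1). On simulated counts for this contrast over 12528 genes, the fit found 21% of 2-fold and 95% of 4-fold changes, with 4 false calls. The simulation gave every gene and library the same dispersion, 0.052. The real p62KO libraries were far more uneven than the WT libraries, so these figures may not carry over. Counting intervals are exact, at 95%, and a group without counts was set to 3 counts over its libraries. Gene positions are on GRCm38 (99.2% of symbols) and promoters are from RefSeq. Promoters of chromosome 18 were left out of the search, so list members there count as having no entry. A list member counted as holding an element if any of its promoter entries did. Shares over all promoters are per entry, so the 2 are not fully alike.

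Members and gene lists were chosen with earlier results of these data known. Genes were named by rule: the 15 largest rises and falls by fold and the 10 by CPM, the first 2 members and up to 8 changed members of each list, the largest gaps between the p62KO replicates, the genes nearest to a calcipotriol dependence, and the highest markers. Some genes that the rule picked are not described above, such as Wisp2, Itm2a, Serping1, Ccdc85a and Nefm. Counts of named genes include them. Other genes named complete a list's count or were chosen after their values were seen.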

Additional observations from a re-analysis of the deposited data

Results flagged for a closer look

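In 12 of the genes named by the rule, the p62KO libraries lay on opposite sides of WT in vehicle-treated stellate cells and in liver, with no overlap between genotypes in either, and the gene passed edgeR's test in both. The difference between the 2 settings was not tested in any of them. Values are log2 fold changes, p62KO over WT. Matrix genes that were lower in stellate cells and higher in liver were Sparc (-1.04 in stellate cells, 2.07 in liver), Spp1 (-2.41 in stellate cells, 2.24 in liver) and Tnc (-1.64 in stellate cells, 1.93 in liver). So were the chemokine gene Cxcl14 (no counts in p62KO stellate cells, 1.52 in liver), the inflammatory gene Tnfaip2 (-1.04 in stellate cells, 1.03 in liver), the lipase gene Lpl (-2.54 in stellate cells, 1.42 in liver) and the lysosomal enzyme gene Gusb (-0.93 in stellate cells, 0.66 in liver). Genes that were higher in stellate cells and lower in liver were the mitotic regulator Pttg1 (2.29 in stellate cells, -3.23 in liver), the quinone reductase gene Nqo1 (2.06 in stellate cells, -1.07 in liver), Herpud1 (1.30 in stellate cells, -0.87 in liver), the respiratory chain gene Ndufa5 (1.05 in stellate cells, -0.84 in liver) and the secreted factor gene Angptl6 (2.39 in stellate cells, -0.79 in liver). Lama5, named outside the rule, also passed in opposite directions (-1.86 in stellate cells, 2.19 in liver). Ndufa6, Ndufs6 and Ndufc1, also outside it, did so too (1.07, 1.02 and 0.98 in stellate cells, -0.74, -0.68 and -0.63 in liver).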

How the results depend on the processing

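The number of genes that passed with vehicle, 1634, ranged from 238 to 3635 when 1 library was left out of the fit, was 5459 without both libraries that stood apart (the first p62KO library with vehicle, the second with calcipotriol), and was 975 with chromosome medians removed. In these fits a lone library is assumed to vary like the other groups. Other settings stayed within 1.5 times: 2397 from the 4 vehicle libraries alone, 2336 with DESeq2, 1406 with voom, and 1626 with library totals only, where 1005 rose and 621 fell. With a replicate block 1377 passed, 1328 of them shared. The replicate numbers were not taken as pairs in the main fit. The correlation of replicate 1 deviations was 0.02 between the WT and p62KO vehicle groups. Between the WT calcipotriol and p62KO vehicle groups it was 0.46, and between other groups it lay from -0.21 to 0.08. What the value of 0.46 reflects was not tested. Dependence on calcipotriol went from 0 to 2514 genes when 1 library was left out (2514 without p62KO calcipotriol replicate 1, 7 without p62KO vehicle replicate 2). Liver had 1020 genes, 2442 with DESeq2, 638 with a replicate block and 3 to 3669 with 1 liver left out. Signs turned for Il6, from 0.73 to -0.94 without both libraries that stood apart, for Mmp3, from 1.03 to -5.98 there and over -5.98 to 2.02 with 1 library left out, and for Atp5b, from -0.63 to 0.014 with chromosome medians removed. The cause was not tested. Of 219 named genes that passed, 87 passed in the same direction in every setting. With 2 libraries a group, 2-fold changes were mostly missed on simulated counts, so a gene that did not pass may still differ.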
